A study of Homo sapiens with 12 samples.

Results

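The genes described here are those whose signal differed between Dox(+) and Dox(-) cells in 1 direction across the derivative lines, whichever hairpin the line carried. A gene was represented by its brightest probe set, kept where the 6 Dox(-) arrays averaged 6.5 or more on the log2 scale, and counted as a member when 5 or 6 of the 6 Dox(+) minus Dox(-) differences had the same sign. Of 33458 genes on the array, 15194 were kept and 3232 were members, 399 of them with the same sign in all 6 pairs. The 12 Clariom D arrays came from RDES and SK-N-MC, cell lines established from Ewing sarcoma, each with a doxycycline-inducible hairpin named shPRC1_cds or shPRC1_utr (against the coding sequence or the untranslated region of PRC1) or shControl. The Dox(+) cells received 1 µg/ml doxycycline for 60 h, renewed at 48 h, and the Dox(-) cells none. All lines had been infected with a pLKO-TET-ON vector, selected with puromycin and grown in tetracycline-free serum, and whether each was a pool or a clone is not given in the sources used here. No array of cells without a hairpin was analysed here, so that doxycycline itself and the production of a hairpin cannot be told apart in any pair. Each condition had 1 array. The replicates are therefore the 6 derivative lines, p-values weigh the mean difference against the spread between those lines, and precision is limited by the array number. The 6 lines were derived from RDES and SK-N-MC alone, so they are not unrelated replicates.

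Doxycycline is a tetracycline antibiotic that binds bacterial ribosomes and, at higher exposure, the related ribosomes of mitochondria. ATF4 is a transcription factor whose translation increases when kinases that sense amino acid shortage, double-stranded RNA, or stress of the endoplasmic reticulum or mitochondria phosphorylate the initiation factor eIF2. It binds, with C/EBP partners, to composite elements in genes for amino acid synthesis and import and for tRNA charging. Its targets also include its own feedback regulator TRIB3 and the stress gene CHAC1. ASS1 joins citrulline and aspartate on the way to arginine, ASNS makes asparagine, and DDIT4 restrains the growth kinase complex mTORC1.

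The Ewing sarcoma genes CD99, FLI1, EWSR1 and STEAP1 were above the signal limit in all 12 arrays. The means of the epithelial, haematopoietic and endothelial marker lists lay between 5.65 and 6.30 in Dox(+) arrays and between 5.46 and 6.19 in Dox(-) arrays. Single members were higher: 4 of 14 epithelial, 1 of 13 haematopoietic and 3 of 12 endothelial genes on the array met the limit. Among them, KRT18 ran from 7.68 to 12.21 and EMCN from 8.50 to 13.30 across the arrays. The fibroblast marker list was higher, with 9 of its 12 genes on the array at the limit or above and array means of 8.08 to 9.43 with Dox and 8.11 to 9.57 without. The arrays labelled RDES shControl did not resemble RDES. On a scale built from 391 genes that differed by at least 3 log2 units between the shPRC1 arrays of the lines, with 1 for RDES and 0 for SK-N-MC, they lay at 0.0026 with Dox and 0.0048 without, and their STAG2 signals were 6.01 and 6.10, against 13.78 to 14.01 in the RDES shPRC1 arrays. The arrays labelled SK-N-MC shControl lay at 0.15 both with and without Dox, with STAG2 at 9.32 and 9.15 against 5.84 to 6.06 in the SK-N-MC shPRC1 arrays. Both arrays of each of these pairs held nearly the same place, so each Dox difference was taken between like arrays, but their line labels are open to doubt and counts are also given without the RDES shControl pair. The median difference over all genes kept was -0.05, 0.17 and -0.07 log2 in RDES shPRC1_cds, shPRC1_utr and shControl, and 0.07, -0.15 and 0.11 in SK-N-MC shPRC1_cds, shPRC1_utr and shControl.

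The 3 hairpins are shown because every Dox(+) array held 1 of them, and the members are genes with 1 direction whichever it was. The guide strand of each, 21 bases read 5′ to 3′ from the study's oligonucleotides, is written below as DNA with its seed (bases 2 to 8) in capitals.
shPRC1_cds: aAATGCCTttgaatgttcctg
shPRC1_utr: tATGTGGTagagaagtcaggc
shControl: tTGGTGCTcttcatcttgttg
No pair of hairpins shared a seed. Position by position, shPRC1_cds matched shControl at 9 and shPRC1_utr matched it at 7 of the 21 bases, and the shPRC1 hairpins matched each other at 5.

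No gene passed the paired test. The limma fit of the 6 differences, with Benjamini-Hochberg adjustment over the 15194 genes, called 0 genes at an adjusted p under 0.05 (0%), with a smallest adjusted p of 0.942, while 718 genes had an unadjusted p under 0.05. By sign alone, 238 genes (1.57%) were higher with Dox in all 6 pairs and 161 (1.06%) were lower in all 6. In 5 or 6 pairs 1824 genes (12%) were higher and 1408 (9.27%) were lower. These shares are the background for the counts that follow. With signs falling at random, a gene would have 1 direction in all 6 pairs with a probability of 0.03125, both directions together. Counts by sign alone therefore do not show a common effect. Between pairs, the differences of the 15194 genes correlated at -0.29 to 0.24 (Pearson, across genes that are not independent replicates and arrays scaled together). Of the 1085 genes higher in all 4 shPRC1 pairs, 21.9% were also higher in both shControl pairs, against 24.2% of all genes kept. Of the 774 lower in all 4 shPRC1 pairs, 20.8% were also lower in both shControl pairs, against 22.5% of all genes kept.

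ASS1 (chromosome 9, 130444707 to 130501274, GRCh38.p14) was higher with Dox in 6 of 6 pairs. Its log2 signal in the Dox(+) arrays was 8.06 in RDES shPRC1_cds, 8.40 in RDES shPRC1_utr, 15.15 in RDES shControl, 15.22 in SK-N-MC shPRC1_cds, 15.64 in SK-N-MC shPRC1_utr and 14.94 in SK-N-MC shControl, and in the Dox(-) arrays of the same lines it was 8.02, 8.12, 14.64, 14.48, 14.57 and 13.98. The 4 lines that lay near SK-N-MC were all high, and in them every Dox(+) value was above every Dox(-) value, while the RDES shPRC1 lines were far lower and their differences were 0.05 and 0.28. The mean difference was 0.60 ± 0.40 log2 (SD, n = 6), or 1.52-fold. In the exact sign-flip test over the 64 sign patterns (two-sided) p was 0.03125, the smallest the design allows. Every gene with 1 sign in all 6 pairs gets this p, so being higher in 6 of 6 fixes it in advance. Adjusted over ASS1, ASNS and DDIT4 (Benjamini-Hochberg), the sign-flip p was 0.09375 for both ASS1 and ASNS. The adjusted p of ASS1 over all genes in the limma fit was 0.942. ASS1 and the next 2 genes were chosen with earlier results of these arrays known, so the sign-flip p is a description.

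ASNS (chromosome 7, 97851677 to 97928441) was higher in 5 of 6 pairs. Its log2 signals were 11.64, 13.11, 15.16, 15.07, 16.08 and 15.32 with Dox and 11.98, 12.48, 14.78, 14.50, 14.61 and 14.38 without, in the same order of lines. The SK-N-MC shPRC1_utr line had the largest difference, 1.47, and RDES shPRC1_cds was the exception at -0.34. The mean was 0.61 ± 0.60 log2 (SD, n = 6; exact sign-flip p = 0.0625; limma adjusted p = 0.942).

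DDIT4 (chromosome 10, 72273924 to 72276036), although proposed as a marker of the common effect, was not a member. Its log2 signals were 7.66, 7.10, 10.31, 9.94, 12.22 and 10.69 with Dox and 7.56, 7.17, 9.81, 12.63, 12.72 and 9.44 without. Its differences were 0.09 and -0.07 in the RDES shPRC1 lines and -2.69 and -0.50 in SK-N-MC shPRC1_cds and shPRC1_utr, whereas it was higher in both shControl pairs, by 0.51 and 1.25. The mean was -0.24 ± 1.34 log2 (SD, n = 6; exact sign-flip p = 0.8125). The shPRC1 minus shControl difference of its Dox effect was -1.67 log2, with an unadjusted p of 0.0241 and an adjusted p of 0.999 in the limma fit by hairpin class. The plot of signals by array shows these 3 genes beside 3 regulators or stress targets of ATF4.

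**Figure D1:**
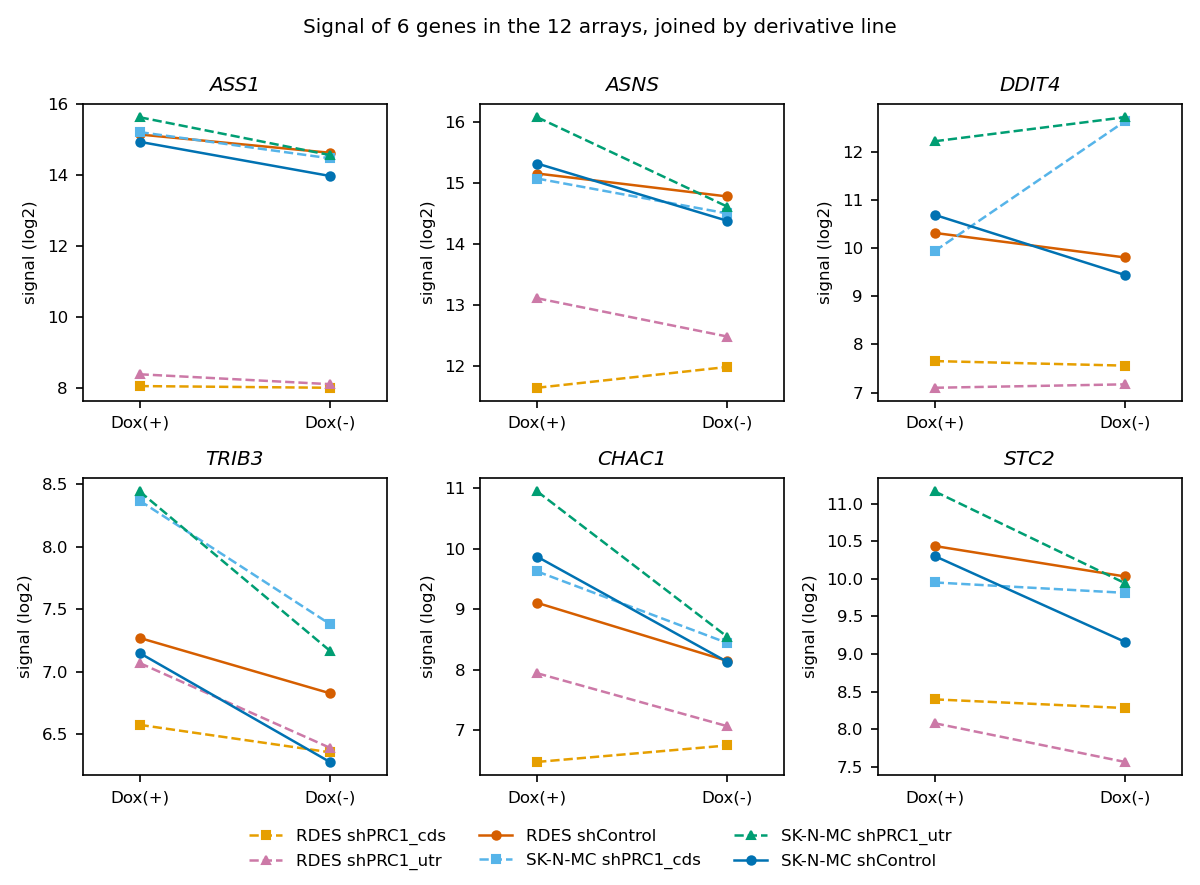
Log2 signal (y axis) of ASS1, ASNS, DDIT4, TRIB3, CHAC1 and STC2 in the Dox(+) and Dox(-) array of each derivative line (x axis), 1 point per array, joined within a line; broken lines are shPRC1 and solid lines shControl. ASS1, TRIB3 and STC2 were higher with Dox in 6 of 6 lines, ASNS and CHAC1 in 5, and DDIT4 in 3.

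Among regulators and stress targets of ATF4, 22 genes were kept, of which 11 were higher in 5 or 6 pairs, 4 of them in all 6, and 1 (ERO1A) was lower. TRIB3, a pseudokinase that restrains ATF4, had log2 signals of 6.58, 7.07, 7.27, 8.37, 8.44 and 7.15 with Dox and 6.36, 6.39, 6.83, 7.38, 7.17 and 6.28 without, with the lines in the order used for ASS1. The Dox(+) and Dox(-) ranges overlapped across lines, and the difference within a line ran between 0.22 in RDES shPRC1_cds and 1.27 in SK-N-MC shPRC1_utr. Its mean difference, 0.74 ± 0.38 log2 (SD, n = 6; 1.67-fold), had an unadjusted p of 0.000279 and an adjusted p of 0.942. Several of its Dox(-) arrays were under the signal limit of 6.5.

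CHAC1, which degrades glutathione, had the largest mean difference of the genes higher in 5 or 6 pairs, 1.15 ± 0.90 log2 (SD, n = 6; 2.21-fold; limma adjusted p = 0.942). Its log2 signals were 6.48, 7.94, 9.10, 9.62, 10.94 and 9.87 with Dox and 6.75, 7.07, 8.15, 8.44, 8.54 and 8.13 without. RDES shPRC1_cds was lower with Dox, and the other 5 lines had differences of 0.88 to 2.40.

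STC2, a secreted glycoprotein of the stress response, was higher in 6 of 6 pairs by a mean of 0.59 ± 0.48 log2, with a smallest difference of 0.12 and a largest of 1.22. SESN2, an amino acid sensor that dampens mTORC1, had differences of 0.20, 0.27 and 0.13 in RDES shPRC1_cds, shPRC1_utr and shControl and of 0.36, 0.93 and 0.84 in SK-N-MC shPRC1_cds, shPRC1_utr and shControl. NUPR1, a small stress-induced chromatin protein, was higher by 0.14 to 0.72 in the 6 pairs, with a mean of 0.48 ± 0.24 log2. ATF4 mRNA itself was higher in 5 of 6 pairs by a mean of 0.26 ± 0.35 log2 and lower by -0.38 in RDES shPRC1_cds. DDIT3 (CHOP), a pro-apoptotic partner of ATF4, was no member: it stood at -0.04 and -0.15 in the RDES shPRC1 pairs and was higher by 0.68 to 0.94 in the other 4. Each of these genes had an adjusted p of 0.942 in the limma fit (SD over n = 6 pairs throughout).

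Of 22 genes of amino acid synthesis, 13 were higher in 5 or 6 pairs and 1 (OAT) was lower, with a median over the list of 0.20 log2 against 0.01 for all genes kept. The serine pathway was represented by PHGDH, PSAT1 and PSPH, its 3 enzymes in sequence, and the mitochondrial folate pathway by SHMT2, MTHFD2, MTHFD1L and ALDH1L2. ALDH1L2 had a mean difference of 0.57 ± 0.47 log2 and CTH, the last step of cysteine synthesis from methionine, 0.48 ± 0.53 log2 (SD, n = 6), with SK-N-MC shPRC1_cds as the contrary pair at -0.10 and -0.20. PSAT1, at a log2 signal of 14.28 to 16.89 with Dox and 14.53 to 16.33 without, was higher by 0.22 to 0.57 in 5 pairs and stood at -0.26 in RDES shPRC1_cds. PHGDH, which opens the pathway, was higher by 0.10 to 0.57 in 5 pairs and stood at -0.73 in RDES shPRC1_cds.

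Of 18 tRNA synthetases and associated factors, 11 were higher in 5 or 6 pairs and 0 were lower, with a median of 0.14 log2. With each pair centred 8 of the 18 (44.4%) were higher, against 11.6% of all genes. In RDES shControl and RDES shPRC1_cds 9 of the 18 were above 0, with medians of -0.01 and -0.02 log2. IARS1, the cytosolic isoleucyl-tRNA synthetase, was higher in all 6, by 0.10 to 0.49. GARS1 and SARS1, for glycine and serine, had means of 0.41 ± 0.32 and 0.37 ± 0.46 log2 (SD, n = 6) and were both lower in RDES shPRC1_cds, by -0.11 and -0.51. Of 21 amino acid carriers, 6 were higher in 5 or 6 pairs and 0 were lower. Without the SK-N-MC shControl pair 6 (28.6%) were higher and 6 (28.6%) lower in at least 4 of 5, against 17.5% and 20.4% of all genes. The carrier median was then 0.0047 log2, against 0.08 over all 6 pairs. SLC1A4, a carrier of alanine, serine and cysteine, had log2 signals of 9.63, 10.38, 8.85, 10.12, 9.21 and 8.51 with Dox and 9.50, 9.95, 8.59, 8.44, 8.44 and 8.18 without, the largest difference being 1.68 in SK-N-MC shPRC1_cds. SLC7A5, the light chain of the leucine carrier, stood at -0.51 in RDES shPRC1_utr, 0.18 and 0.21 in RDES shPRC1_cds and shControl and 1.37, 0.71 and 1.32 in SK-N-MC shPRC1_cds, shPRC1_utr and shControl. SLC7A11, the cystine carrier, was not a member, with differences between -0.56 and 1.59.

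Counted once each, the 82 genes of these 4 lists included 41 (50%) that were higher in 5 or 6 pairs and 2 (2.44%) that were lower, against 12% and 9.27% of all genes kept. With each pair centred on its median over all genes, the count was 37 of 82 (45.1%), against 11.6% of all genes. Without the RDES shControl pair, 48 of 82 (58.5%) were higher and 4 (4.88%) lower in at least 4 of the remaining 5 pairs, against 24.9% and 13.6% of all genes. Without the SK-N-MC shControl pair, 42 (51.2%) were higher and 14 (17.1%) lower, against 17.5% and 20.4% of all genes. In the 4 shPRC1 pairs alone, 49 (59.8%) were higher and 18 (22.0%) lower in at least 3, against 35.3% and 29.3% of all genes. The map of differences shows the 41 genes.

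**Figure D2:**
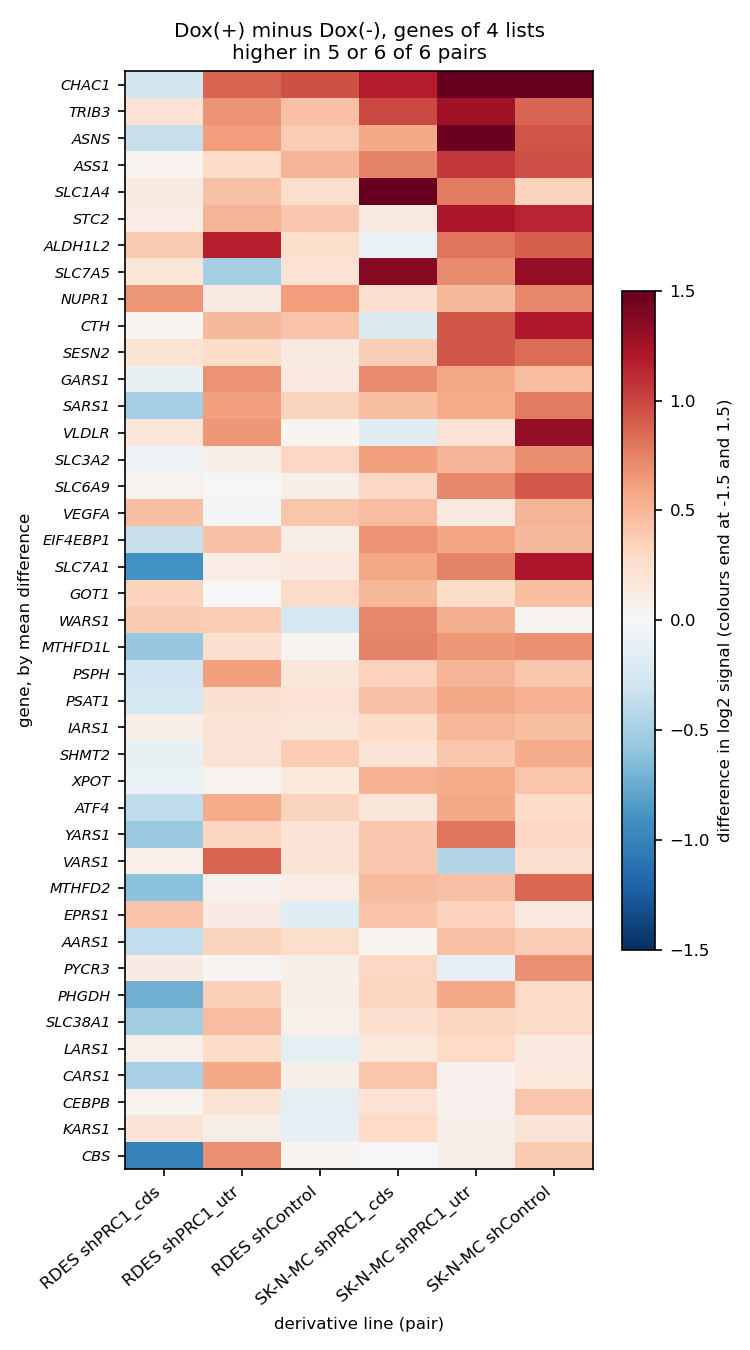
Dox(+) minus Dox(-) difference in log2 signal (colour) of the 41 genes of the 4 lists that were higher in 5 or 6 pairs, in rows ordered by mean difference, in the 6 derivative lines (columns). The RDES shPRC1_cds column holds most of the contrary values, 20 of the 34 genes with a single exception.

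The pairs contributed unequally. The number of the 82 genes above 0 was 29 in RDES shPRC1_cds, 63 in RDES shPRC1_utr, 51 in RDES shControl, 61 in SK-N-MC shPRC1_cds, 51 in SK-N-MC shPRC1_utr and 79 in SK-N-MC shControl. The median difference was -0.13, 0.21, 0.09, 0.28, 0.29 and 0.41 log2 in these pairs. RDES shPRC1_cds had the lowest share above 0 and SK-N-MC shControl the highest. Of the 34 list genes with a single contrary pair, the contrary pair was RDES shPRC1_cds for 20 (58.8%), against 239 of 1586 (15.1%) among all genes higher in exactly 5 pairs. In that same pair the median of 54 G2/M genes was -1.47 log2, against -0.35 to 0.14 in the other 5. The part of this cell cycle difference in the contrary signs was not tested.

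Promoter sequences are shown for 4 genes of these lists, CHAC1, GOT1, IARS1 and AARS1. They hold letters of the composite ATF4 and C/EBP element in 1 identical form and 1 orientation to the gene. The letters TGATGNAA were searched on both strands in the RefSeq promoters (GRCh38.p14), which run 250 bases before to 50 after the start of each gene. The motif was in 1024 of 27305 promoters (3.75%), and in 176 of 9351 promoters of genes kept (1.88%). It was in 7 of 31 promoters (22.6%) found for the 41 list genes higher in 5 or 6 pairs, and in 4 of 35 (11.4%) found for the other list genes. Among genes higher in all 6 pairs it was in 2 of 139 promoters (1.44%), and among genes lower in all 6 in 2 of 75 (2.67%). Windows of 30 bases on the strand of the gene follow, with the motif or its reverse complement in capitals. The windows of CHAC1 at chr15:40953251-40953280 and GOT1 at chr10:99430804-99430833 lie upstream of the start, as does that of AARS1 at chr16:70289675-70289704, and that of IARS1 at chr9:92293692-92293721 spans it.
CHAC1: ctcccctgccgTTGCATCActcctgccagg
GOT1: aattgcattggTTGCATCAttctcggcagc
IARS1: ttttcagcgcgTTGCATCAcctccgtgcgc
AARS1: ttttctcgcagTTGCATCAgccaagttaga
In all 4 the same letters TTGCATCA stood on the strand of the gene, beginning at positions -209, -198, -13 and -187 relative to the start. The same element in the other orientation, TGATGCAA, was in the promoters of MTHFD1L, NARS1, SLC1A5 and SLC1A3. MTHFD1L was higher in 5 pairs, while NARS1, SLC1A5 and SLC1A3, higher in 4, 3 and 2, were not members. Other forms of the motif were in the promoters of SLC38A1 and SLC7A1, each higher in 5 pairs, and of ATF3, higher in 4. No match was found for ASS1, ASNS, TRIB3 or STC2, and some list genes had no promoter to search. GOT1 was higher in 5 of 6 pairs by a mean of 0.31 log2 and AARS1 in 5 of 6 by 0.18 log2. A match of letters is a description and not a measured site.

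The genes of the endoplasmic reticulum response were more often lower than higher. Of 21 kept, 6 were lower in 5 or 6 pairs (HSP90B1, CALR, PDIA4, PDIA6, DNAJB9 and MANF) and 1, HERPUD1, was higher. Without the RDES shControl pair 7 (33.3%) were lower and 4 (19.0%) higher in at least 4 of 5, against 13.6% and 24.9% of all genes. Without SK-N-MC shPRC1_utr 6 (28.6%) were lower and 4 (19.0%) higher, against 13.2% and 26.3%. The list median was then 0.02 log2, against -0.05 over all pairs. MANF, a chaperone-like factor of the reticulum, had log2 signals of 9.97, 10.15, 9.50, 9.88, 9.35 and 9.51 with Dox and 10.19, 10.07, 9.79, 10.43, 10.23 and 10.01 without, a mean difference of -0.40 ± 0.33 log2 (SD, n = 6). PDIA6, a disulfide isomerase, was lower in 6 of 6 pairs by -0.04 to -0.47. HERPUD1, a degradation factor of the reticulum membrane, was higher by 0.09 to 0.88 in 5 pairs and stood at -0.08 in RDES shControl. HSPA5 (BiP), the main chaperone of this response, was higher in 2 and lower in 4 pairs, with a mean of -0.11 log2.

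Of 46 cytosolic ribosomal proteins, 19 were higher in 5 or 6 pairs and 1 (RPL24) was lower, and 6 were higher in all 6 (RPL12, RPL19, RPL27, RPL30, RPL38 and RPS28). The differences were small: the list median was 0.09 log2, and RPS28, a protein of the small subunit, had differences of 0.02 to 0.48. By hairpin class the ribosomal median was 0.01 log2 in the shControl pairs and 0.12 in the shPRC1 pairs. In RDES shControl 14 of the 46 were above 0 (median -0.06), and in SK-N-MC shControl 32 (median 0.10). The part of PRC1 loss in this was not tested. With each pair centred, 14 of the 46 (30.4%) were higher in 5 or 6 pairs, against 11.6% of all genes. Without the RDES shControl pair 31 of the 46 (67.4%) were higher in at least 4 of 5, against 24.9% of all genes. With any other pair left out the share was 45.7% to 54.3%, against 16.3% to 26.3%. Of 67 nuclear genes of the respiratory chain and ATP synthase, 18 were higher and 0 were lower in 5 or 6 pairs, with a median of 0.10 log2. By hairpin class this median was 0.02 log2 in the shControl pairs and 0.12 in the shPRC1 pairs. Above 0 were 21 of the 67 in RDES shControl, 55 in SK-N-MC shControl and 14 in SK-N-MC shPRC1_utr. Without the RDES shControl pair 39 (58.2%) were higher in at least 4 of 5, against 24.9% of all genes. Without SK-N-MC shPRC1_utr 42 (62.7%) were higher, against 26.3%. With any other pair left out the share was 26.9% to 34.3%, against 16.3% to 21.0%. ATP5F1D, a subunit of the ATP synthase, had log2 signals of 7.76, 9.02, 9.81, 10.66, 10.21 and 10.23 with Dox and 7.50, 8.74, 9.71, 9.83, 10.19 and 9.30 without. Of 8 genes of the mitochondrial genome, 0 had the same direction in 5 or 6 pairs and the median was 0.03 log2. Of 75 mitochondrial ribosomal proteins, 11 were higher and 0 were lower, a share near the background.

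The interferon and double-stranded RNA list had 2 of 18 genes higher (RIGI and EIF2AK2) and 2 lower (IFI44 and RSAD2). Both shares were 11.1%, near the background of 12% and 9.27%. The RNA interference machinery had 2 of 14 (14.3%) higher (TNRC6B and TNRC6C) and 3 (21.4%) lower (DICER1, DROSHA and AGO4). TNRC6C was higher in 6 of 6 pairs, but by only 0.0001 log2 in its weakest pair. For 20 genes of cholesterol synthesis 0 were higher and 4 were lower in 5 or 6 pairs, where 9.27% of all genes were lower. Without SK-N-MC shControl 10 of the 20 were lower in at least 4 of 5, a looser rule met by 20.4% of all genes. The list median of -0.20 log2 was -0.05 without SK-N-MC shPRC1_cds. IDI1, an early isomerase of that pathway, was at -1.49 and -0.97 log2 in SK-N-MC shPRC1_cds and shPRC1_utr but at -0.04 and -0.01 in the shControl pairs. Among 54 G2/M genes 12 (22.2%) were lower and 0 were higher in 5 or 6 pairs. With each pair centred 21 (38.9%) were lower, against 11.9% of all genes. The median of the G2/M genes was -0.28 log2 over all pairs and -0.05 log2 without RDES shPRC1_cds. FOXM1, a transcription factor of G2/M, was at -2.65 log2 in that pair and between -0.62 and 0.10 in the others. The S phase list had 5 of 40 (12.5%) lower and 0 higher. With each pair centred 16 of the 40 were lower and 1 higher, against 11.9% and 11.6% of all genes. Without RDES shPRC1_cds 5 were lower and 6 higher in at least 4 of 5, against 13.4% and 21.0% of all genes. The S phase median was then -0.03 log2, against -0.21 over all pairs. Of 6 NF-kB targets kept, 3 were higher and 0 lower. The plots of list shares and of group differences by pair show these counts and values.

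**Figure D3:**
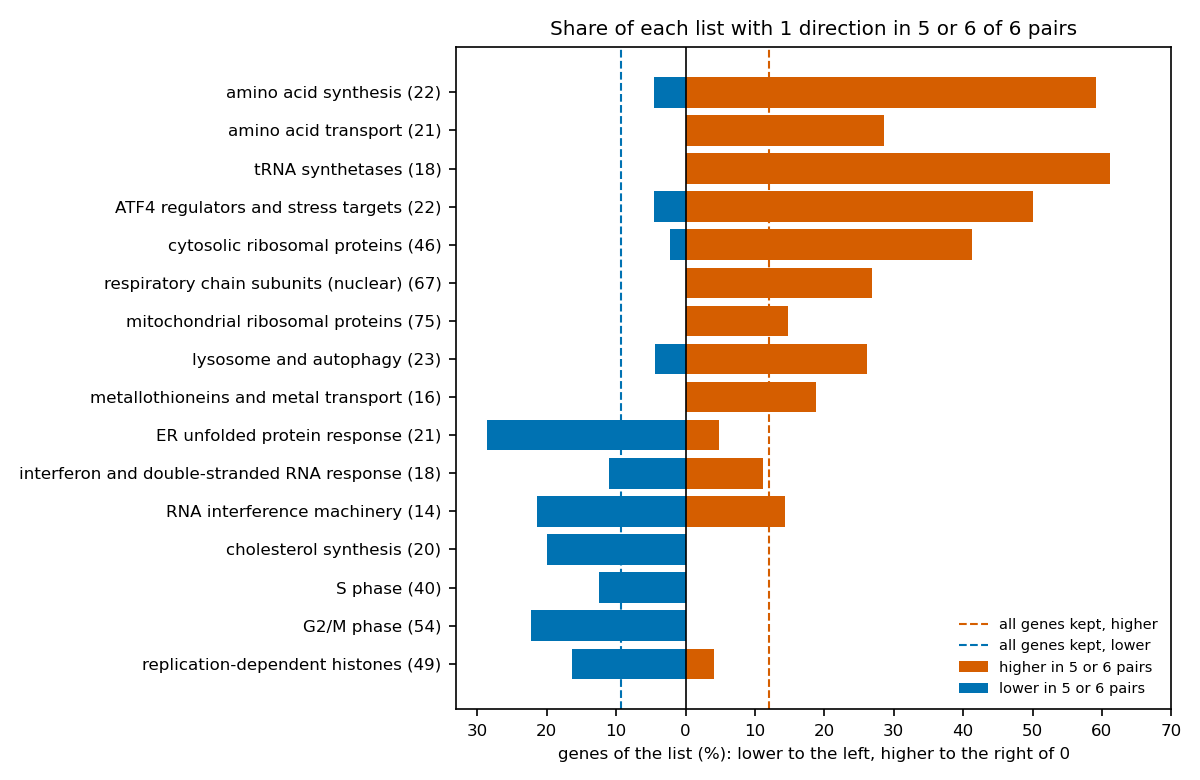
Share of the genes of selected lists (x axis, percent of the genes kept, number in parentheses) that were higher (right of 0) or lower (left of 0) in 5 or 6 of 6 pairs; broken lines mark the shares of all genes kept, 12% and 9.27%. The tRNA synthetase list reaches 61.1% on the right and the endoplasmic reticulum list 28.6% on the left; the remaining lists, NF-kB targets (3 of 6 higher) among them, are not drawn.

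**Figure D4:**
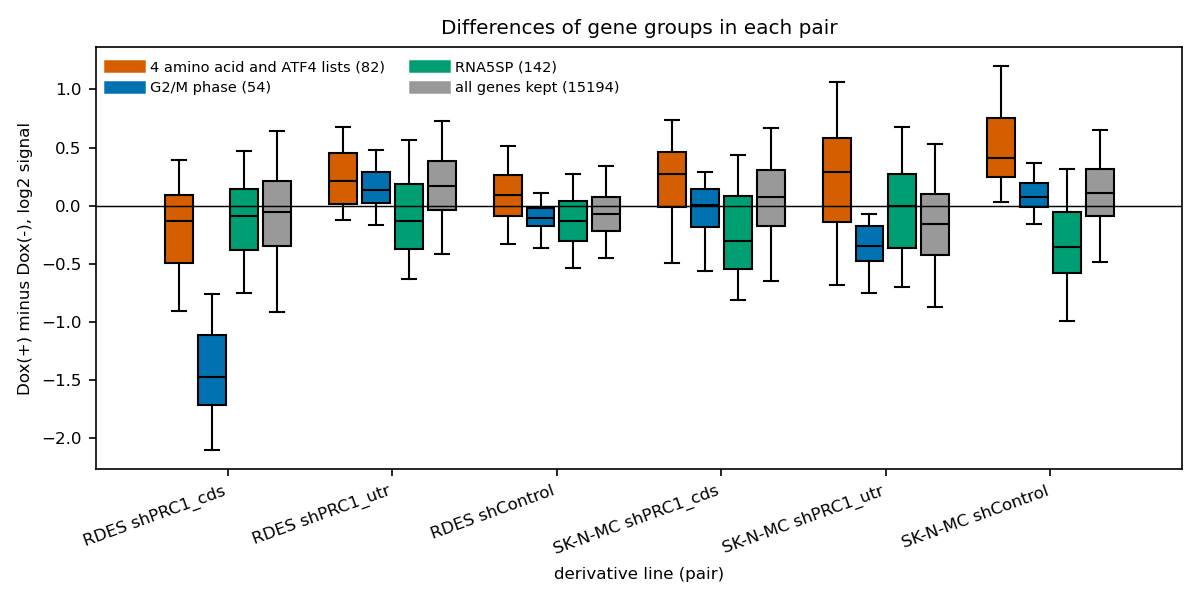
Dox(+) minus Dox(-) difference in log2 signal (y axis) in each derivative line (x axis) for the 82 genes of the amino acid and ATF4 lists, 54 G2/M genes, 142 RNA5SP pseudogenes and the 15194 genes kept; boxes span the quartiles, the line is the median and whiskers run between the 5th and 95th percentile. The G2/M genes stand apart in RDES shPRC1_cds, with a median of -1.47 log2.

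Outside the lists above, the genes with the largest mean among those higher in 6 of 6 pairs included RNH1, COL21A1, PRRT4 and MIR6738. RNH1, the cytosolic inhibitor of ribonucleases, had log2 signals of 11.13, 10.38, 10.11, 11.03, 9.88 and 9.70 with Dox and 10.26, 9.54, 9.66, 10.04, 9.62 and 9.29 without, a mean difference of 0.64 ± 0.30 log2 (SD, n = 6; limma adjusted p = 0.942). COL21A1, a collagen chain, had a mean of 0.74 ± 0.66 log2, made up of 1.04 in the shPRC1 pairs and 0.15 in the shControl pairs (shPRC1 minus shControl 0.88 log2, unadjusted p = 0.0341, limma adjusted p = 0.999). Its signal in the RDES shPRC1 lines, 5.44 and 5.68 with Dox and 4.62 and 5.18 without, was under the limit. TM6SF1, a lysosomal membrane protein, had a small spread between lines, with differences of 0.36 to 0.84 and a mean of 0.55 ± 0.16 log2 (SD, n = 6). Its log2 signals were 6.59, 6.40, 8.14, 7.24, 7.80 and 7.36 with Dox and 6.06, 6.04, 7.58, 6.73, 7.30 and 6.52 without. CES1, a carboxylesterase, was higher by 0.21 to 0.62 in all 6 pairs although its level spanned 7.39 to 14.63 across the arrays. TIMP1, an inhibitor of metalloproteinases, was higher by 0.11 to 1.06, and MT1G, a metal-binding metallothionein, by 0.01 to 0.71.

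Pseudogenes of ASS1 and ASNS had the direction of their parent genes in most cases. Of 5 pseudogenes of ASS1 kept, 4 were higher in 5 or 6 pairs, with a median of 0.42 log2, and ASNSP1 was higher in 5 of 6 pairs by 0.66 ± 0.49 log2 (SD, n = 6). ASS1P11 and ASS1P9 were at 11.97 to 12.60 and 11.07 to 11.79 log2 with Dox in the 4 lines where ASS1 was high, and at 6.80 to 6.87 and 6.66 to 6.95 in the RDES shPRC1 lines. Such copies can resemble their parent transcripts and the sequences were not compared, so these values cannot be assigned to the pseudogenes.

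Among the genes lower with Dox in 6 of 6 pairs, SLC25A24, a mitochondrial carrier of ATP-Mg and phosphate, had log2 signals of 9.46, 10.71, 11.77, 9.999, 10.12 and 11.78 with Dox and 10.88, 10.91, 12.26, 10.99, 11.33 and 11.84 without. The differences were -0.20 to -1.41 in the shPRC1 lines and -0.50 and -0.06 in the shControl lines, with a mean difference of -0.73 ± 0.56 log2 (SD, n = 6; limma adjusted p = 0.942). TXNRD1, the cytosolic thioredoxin reductase, and CCSAP, a centriole and spindle protein, had differences of -0.06 to -1.43 and -0.06 to -1.24, in both cases smallest in the shControl lines. HYKK, hydroxylysine kinase, was lower by more even amounts, -0.20 to -0.66, with signals of 6.00 to 6.88 with Dox and 6.60 to 7.54 without. ST3GAL6, a sialyltransferase, was at 8.56, 8.61, 6.32, 7.19, 6.45 and 6.35 log2 with Dox and 9.28, 8.92, 6.56, 7.50, 6.70 and 6.66 without. CCNE2, a cyclin of the G1/S transition, was lower by 0.14 to 0.37 in 5 pairs and by 1.21 in RDES shPRC1_cds. DNAJC21, a chaperone cofactor in ribosome assembly, was lower by 0.17 to 0.37 in the 6 pairs, and SLITRK5, a neuronal membrane protein, had a mean difference of -0.61 ± 0.63 log2 (SD, n = 6).

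PRC1, the gene the shPRC1 hairpins are directed at, met the sign rule without being common to all lines. Its log2 signals were 10.54, 13.29, 15.67, 11.55, 12.66 and 15.59 with Dox and 14.50, 14.75, 15.70, 15.56, 15.59 and 15.71 without. The 4 shPRC1 lines had differences of -1.47 to -4.02 log2, whereas the shControl lines differed by -0.03 and -0.11. In the limma fit by hairpin class PRC1 was the 1 gene called in the shPRC1 pairs (0.00658%), at a mean of -3.09 log2 and an adjusted p of 0.0237, and 0 genes (0%) were called in the shControl pairs. The difference between the classes was -3.02 log2 for PRC1, with an unadjusted p of 0.000302 and an adjusted p of 0.999. Of the 161 genes lower in 6 of 6 pairs, 7 were of this kind, with a mean in the shPRC1 pairs of at least 0.5 in size and a mean in the shControl pairs under 0.1. They were APLP2, CCSAP, FNBP1L, MICB, PRC1, S100A10 and TXNRD1, named after their values were seen. Of the 238 genes higher in 6 of 6, 0 were of this kind. A size of at least 0.2 log2 in both hairpin classes was met by 97 of the 238 and 70 of the 161. How many of all genes kept met these sizes was not counted. The counts by size therefore have no background and do not show an effect shared by the classes.

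**Figure D5:**
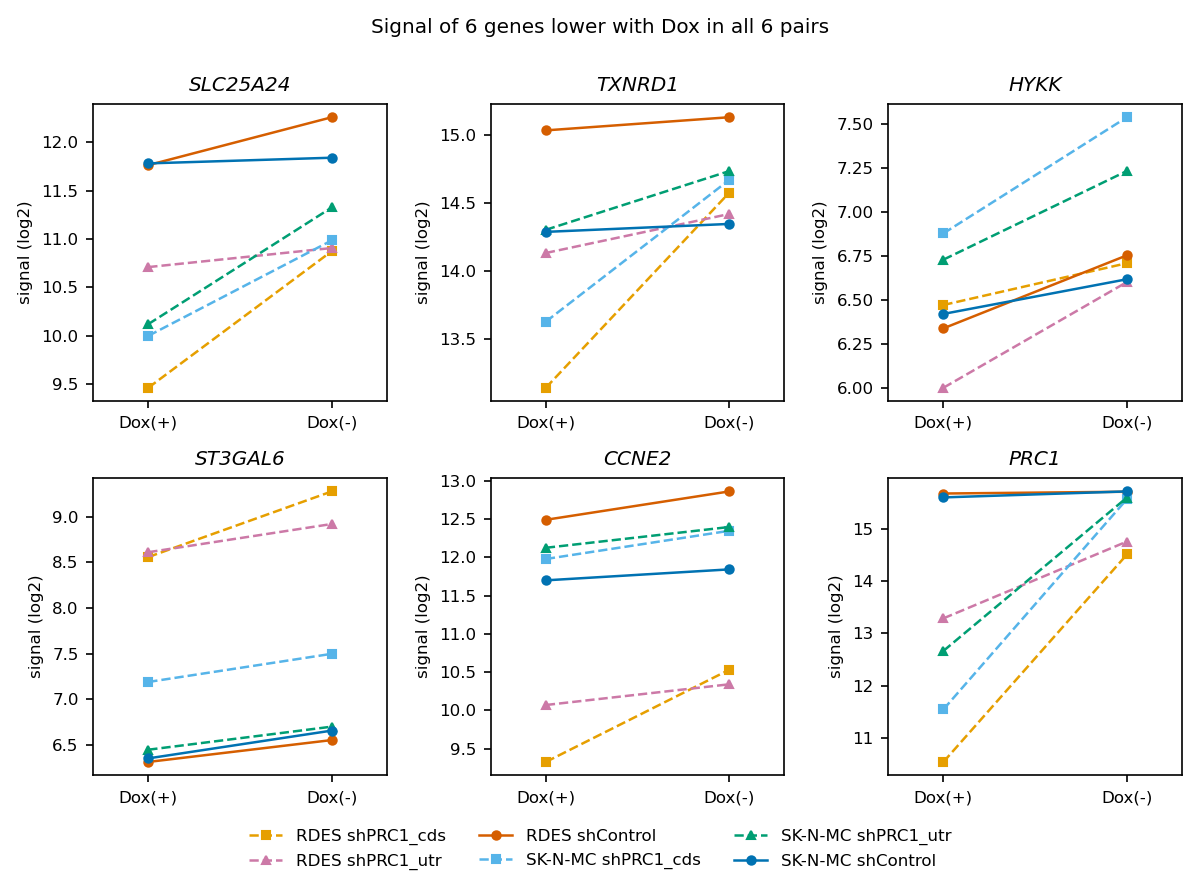
Log2 signal (y axis) of SLC25A24, TXNRD1, HYKK, ST3GAL6, CCNE2 and PRC1 in the Dox(+) and Dox(-) array of each derivative line (x axis), joined within a line; broken lines are shPRC1 and solid lines shControl. All 6 genes were lower with Dox in 6 of 6 lines, and the shControl lines of PRC1 differed by -0.03 and -0.11.

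Small RNA names made up 23.6% of the genes lower in all 6 pairs and 7.14% of those higher in all 6, against 10.9% of all genes kept. Of 142 pseudogenes of the 5S ribosomal RNA (RNA5SP), 56 (39.4%) were lower and 2 higher in 5 or 6 pairs, and 12 were lower in all 6. The family was looked at after these values were seen. Their median difference was -0.09 log2 in RDES shPRC1_cds, -0.13 in RDES shPRC1_utr, -0.13 in RDES shControl, -0.31 in SK-N-MC shPRC1_cds, -0.0009 in SK-N-MC shPRC1_utr and -0.35 in SK-N-MC shControl. Centred pairs gave 50 of 142 (35.2%) lower and 1 higher, against 11.9% and 11.6% of all genes. Without the RDES shControl pair 66 (46.5%) were lower in at least 4 of 5, against 13.6% of all genes. RNA5SP19 had log2 signals of 9.08, 7.34, 8.45, 8.71, 8.86 and 7.24 with Dox and 9.74, 7.68, 9.02, 9.19, 8.96 and 8.72 without. The U6 family (RNU6), of similar median signal, had 47 of 437 lower and 41 higher, near the background. Copies within a family can resemble each other and their sequences were not compared, so that probe sets cannot be taken as separate genes.

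No gene was called for a difference of the Dox effect between hairpin classes or between cell lines as labelled, a division that counts the RDES shControl pair as RDES although it lay near SK-N-MC. The limma fit of shPRC1 minus shControl pairs called 0 genes (0%), with 491 at an unadjusted p under 0.05, and that of RDES minus SK-N-MC pairs called 0 (0%), with 351. For the core genes the RDES minus SK-N-MC differences were -0.64 log2 for ASS1, -0.60 for TRIB3 and -1.25 for CHAC1, with unadjusted p of 0.0284, 0.041 and 0.0079 and adjusted p of 0.9998 each. The shPRC1 minus shControl differences were -0.21 log2 for ASS1, 0.13 for TRIB3 and -0.30 for CHAC1, with an adjusted p of 0.999 each.

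The members in all 6 pairs were somewhat dimmer than the rest, with median Dox(-) signals of 9.07 for the higher and 9.11 for the lower genes, against 9.56 over all genes kept. Their mean differences had a median of 0.25 and -0.30 log2. In 133 of the 238 higher and 97 of the 161 lower genes the weakest pair was under 0.05 log2 in size. RPL12, higher in 6 of 6, had a weakest pair of 0.0 at 4 decimals, and SCG5, higher in 5 of 6, had a sixth pair of 0.0. At the signal limit, METTL15P1 was just inside with a Dox(-) mean of 6.51 and KRT18P57 just outside with 6.499.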

How the data were processed

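The authors deposited 1 table of log2 signals per probe set, made by SST-RMA (background correction, quantile normalization and summary). The submitters' processing notes name RMA and hg38. Of 135750 probe sets, 36176 had 1 gene symbol, 1119 had several and 98455 had none, and only the first kind was used. Symbols were brought up to the RefSeq table of GRCh38.p14 (623 updated), and a gene was represented by its brightest probe set. Genes averaging 6.5 or more in the 6 Dox(-) arrays were kept. The Dox(+) minus Dox(-) differences, paired by the derivative line that the labels give, entered lmFit and eBayes of limma 3.58.1, run under R 4.3.3 (two-sided, Benjamini-Hochberg, threshold 0.05), and the step was tested on simulated data. Figures were drawn with matplotlib.

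The members, gene lists and tests were chosen with earlier results of these data known. Named genes are ASS1, ASNS, DDIT4 and PRC1, genes past the threshold (none), the 10 higher and 10 lower in 6 of 6 pairs by mean and by weakest pair, and up to 4 members of each list by the size of the mean. NUPR1, ATF4, PSAT1, PHGDH, PSPH, GOT1, AARS1, MTHFD1L, PDIA6, HSPA5, ASNSP1 and genes given by name only were added after their values were seen. Alternatives were other filters, probe set rules, scalings, prior variances, covariates and sets of pairs.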

Additional observations from a re-analysis of the deposited data

Results flagged for a closer look

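Across the 45 genes followed through the alternatives, 6 had 1 pair far from the other 5 (Dixon's criterion for 6 values, which chance meets in about 1 in 20 groups), and in 5 of the 6 that pair was RDES shPRC1_cds. The difference in that pair was -0.73 log2 for PHGDH, -0.51 for SARS1, -1.21 for CCNE2, -0.72 for ST3GAL6 and -2.65 for FOXM1. For TIMP1 the pair that stood apart was SK-N-MC shPRC1_cds, at 1.06 log2. In RDES shPRC1_cds the median of the G2/M genes was also the lowest, -1.47 log2, and its part in these values was not tested.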

How the results depend on the processing

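The count of genes past the threshold of the paired fit was 0 under every alternative run, including the fit with no replicate block, which called 0 without the pairing, and leaving out each pair. The genes with the same direction in 6 of 6 pairs numbered 399 as reported, 982 with no filter, 249 with a minimum of 8, 601 after quantile normalization, 616 to 1056 when 1 pair was left out, 1859 in the 4 shPRC1 pairs and 7097 in the 2 shControl pairs; fewer pairs make 1 direction more frequent. Those in 5 or 6 pairs numbered 3232, and 7172 with no filter. Centring each pair gave 285 higher and 273 lower in 6 of 6 (51.1% higher), against 238 and 161 as deposited (59.6% higher). Leaving out 1 pair gave 0 to 1 genes (PRC1, without RDES shPRC1_utr) for shPRC1 minus shControl, and 0 to 2 (ALDOC and STC1, without SK-N-MC shControl) for RDES minus SK-N-MC; the cause was not tested. DDIT4 averaged -0.53 to 0.26 log2 with 1 pair left out (0.26 without SK-N-MC shPRC1_cds) and 0.88 log2 in the shControl pairs, against -0.24 over all pairs, and FOXM1 averaged 0.025 log2 in the shControl pairs, against -0.62. The other 841 of 844 gene values kept their direction. The exact test has no value under 0.05 with 5 pairs. List counts with a pair left out or centred were added after the data were seen. With 1 array per condition, differences smaller than the spread between lines were not detectable. Larger ones were not called in the paired fit either: TM6SF1, at 0.55 ± 0.16 log2 (SD, n = 6), had a limma adjusted p of 0.942.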
